A study of Homo sapiens with 12 samples.

Results

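The mRNAs of 10 genes of the splicing machinery were followed in HepG2, a permanent cell line from a human liver tumour, during exposure to 2,4-D (2,4-dichlorophenoxyacetic acid, a phenoxy herbicide). They are the 4 CDC-like kinase genes CLK1, CLK2, CLK3 and CLK4, and the splicing factor genes SRSF2, SRSF3, SRSF5, SRSF6, SRSF7 and TRA2A. The genes were picked by symbol from the 60612 gene rows of the deposited count table. The list was drawn up with results of these libraries known, above all the higher CLK1 and SR gene counts at 360 min. All fold changes of the 10 genes are therefore given as a description without a test. Each symbol matched 1 row, and all 10 genes were among the 17779 that passed the filter on low counts. The smallest count of any of them was 282, for CLK4 in 10 min replicate 1.

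Polyadenylated RNA was sequenced from 12 libraries, 3 biological replicates for each of 4 groups. Cells at 0 min were untreated, and the other groups received 0.001 µM 2,4-D for 10, 30 or 360 min. All libraries come from the same cell line, and a single dose was used. No untreated library from a later time was analysed here, so the exposure and the time that passed cannot be told apart, and all comparisons with 0 min rest on the same 3 untreated libraries.

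Total counts, in units of 1e6, ran from 29.8 to 83.5 per library and were lowest at 10 min, between 29.8 and 31.5. A count of 3, below which an absent gene cannot be told from a rare one, corresponded to 0.035 to 0.102 counts per 1e6 counts (CPM). All 12 hepatocyte and HepG2 markers were detected, while PTPRC, the pan-leukocyte marker, and COL1A2, a fibroblast collagen, were at 0 in every library. The mitochondrial share of counts lay between 3.55% and 4.39% in 7 libraries and between 2.52% and 2.74% in 5. All 10 min libraries were on the high side of that gap, and each other group had libraries on both sides.

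SR proteins carry domains rich in arginine and serine, bind exonic sequences and help the spliceosome choose splice sites. CLK kinases phosphorylate these domains in the nucleus, which releases SR proteins from nuclear speckles and lets them act. Many genes of both families limit their own output: alternative splicing adds an exon with an early stop codon (a poison exon) or keeps an intron, and the transcript is destroyed by nonsense-mediated decay (NMD) or stays in the nucleus.

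Transcripts marked for NMD and transcripts with a retained intron are in the annotation of most of these genes. In GENCODE 29 (GRCh38), 9 of the 10 genes have at least 1 transcript marked as an NMD target, against 43.1% of 13105 protein-coding genes tested. A retained-intron transcript was annotated for 8 of the 10, against 56.8% of those genes, and the median number of transcripts per gene was 12, against 7. These shares describe the list, which was named for such regulation. An NMD mark alone does not show a poison exon. Exons of NMD transcripts that no protein-coding transcript of the gene overlaps were found only for CLK3, CLK4, SRSF3, SRSF6 and SRSF7. CLK2 had neither kind of transcript. SRSF7 had the most NMD transcripts, with 6, and CLK1, CLK3 and SRSF5 had the most retained-intron transcripts, with 8 each. The lines below give, for 4 genes, the end of a reading frame that stops in an exon of NMD transcripts, 5′ to 3′. The early stop codon is in capitals. No exon of the gene's protein-coding transcripts overlaps that exon, and transcripts of other types were not checked for it.
SRSF3 (exon chr6:36599821-36600276, plus strand): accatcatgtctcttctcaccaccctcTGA
SRSF6 (exon chr20:43459153-43459420, plus strand): gccatgacgacagcagccttttgccatTAG
SRSF7 (exon chr2:38748898-38749346, minus strand): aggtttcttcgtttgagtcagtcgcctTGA
CLK4 (exon chr5:178619838-178620673, minus strand): gggcattcagtggatattttaaaaaatTAA
The SRSF3 exon is 456 bases long and its stop begins at base 32. In SRSF6 the stop begins at base 150 of a 268-base exon, in SRSF7 at base 26 of a 449-base exon, and in CLK4 at base 107 of an 836-base exon. The deposited counts are sums over a whole gene, so productive, poison-exon and intron-retaining transcripts cannot be told apart in any value that follows.

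RefSeq promoter windows (GRCh38.p14, 250 bases before to 50 after a transcription start) were found for 8 of the 10 genes, with 11 windows in all. The window of CLK1, the gene with the largest change, is shown beside those of the 3 genes that hold the core of the cAMP response element, TGACGT on either strand. On the opposite strand it reads ACGTCA, and it is in capitals.
CLK1 (chr2:200864609-200864908, minus strand): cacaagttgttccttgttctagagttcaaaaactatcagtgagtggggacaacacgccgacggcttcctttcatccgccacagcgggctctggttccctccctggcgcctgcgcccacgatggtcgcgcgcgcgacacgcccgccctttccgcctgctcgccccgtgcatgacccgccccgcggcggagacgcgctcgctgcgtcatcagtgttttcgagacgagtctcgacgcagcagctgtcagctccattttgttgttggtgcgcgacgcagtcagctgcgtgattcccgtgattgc
CLK4 (chr5:178627001-178627300, minus strand): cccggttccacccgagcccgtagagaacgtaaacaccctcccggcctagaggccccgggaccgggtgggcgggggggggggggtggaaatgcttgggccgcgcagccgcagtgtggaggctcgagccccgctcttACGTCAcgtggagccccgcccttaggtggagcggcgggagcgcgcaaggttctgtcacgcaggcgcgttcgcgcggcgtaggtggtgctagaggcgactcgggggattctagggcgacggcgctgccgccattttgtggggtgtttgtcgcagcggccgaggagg
SRSF3 (chr6:36594112-36594411, plus strand): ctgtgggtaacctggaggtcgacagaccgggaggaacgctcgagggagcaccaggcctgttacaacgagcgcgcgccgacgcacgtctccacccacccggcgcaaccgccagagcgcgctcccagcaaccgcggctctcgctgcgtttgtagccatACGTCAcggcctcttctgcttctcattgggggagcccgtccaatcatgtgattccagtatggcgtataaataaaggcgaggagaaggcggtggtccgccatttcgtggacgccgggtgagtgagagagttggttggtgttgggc
SRSF5 (chr14:69766892-69767191, plus strand): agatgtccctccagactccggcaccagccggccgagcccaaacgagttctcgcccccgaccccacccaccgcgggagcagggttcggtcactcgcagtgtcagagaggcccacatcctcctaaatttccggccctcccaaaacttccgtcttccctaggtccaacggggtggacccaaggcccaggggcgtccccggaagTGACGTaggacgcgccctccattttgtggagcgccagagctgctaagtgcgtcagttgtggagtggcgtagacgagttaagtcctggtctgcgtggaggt
CLK4, SRSF3 and SRSF5 hold the core, which was present in 7.98% of 35116 windows of all genes. CLK4 and SRSF3 were higher at 360 min than at 0 min and SRSF5 was lower. CLK1 has no such letters in its windows, and a link between the letters and the changes was not tested. Of 6 other motifs searched on both strands, the GC box GGGCGG was in 6 genes (CLK1, CLK2, CLK3, CLK4, SRSF6 and SRSF7), against 45% of all windows. The CCAAT box (CCAAT) was in CLK3 and SRSF3, against 34.6% of windows, the TATA box (TATAAA) in SRSF3 and SRSF7, against 11.5%, and the ETS core (CCGGAA) in CLK3 and SRSF5, against 17.2%. The E-box (CACGTG) was in CLK2 and CLK4, against 7.26%, and in CLK4 it overlaps the core of the cAMP response element. The YY1 core (GCCATNTT) was in CLK4 only, against 6.58%. A gene was counted if any of its windows held the letters, while the shares are per window, and CLK1, CLK3 and SRSF7 have 2 windows each. A match is a run of letters and not a shown binding site.

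In untreated cells the SR genes were far more abundant per length than the kinases. Levels between genes are compared as CPM per kilobase of merged exons, given as mean ± SD over the 3 libraries of a group. SRSF2 had the highest level at 0 min, 78.1 ± 4.48 CPM per kilobase, followed by SRSF6 with 70.2 ± 1.41 and SRSF7 with 50.6 ± 1.69. SRSF3 had 42.7 ± 2.60, SRSF5 32.1 ± 0.99 and TRA2A, an SR-like splicing activator, 17.8 ± 0.51 CPM per kilobase. Among the kinases CLK2 had 8.43 ± 1.13, CLK1 6.42 ± 0.35, CLK3 1.79 ± 0.06 and CLK4 1.51 ± 0.07 CPM per kilobase. The libraries of neighbouring genes in this order did not overlap. The order depends on the length used, since the merged exons of CLK3 span 20443 bases. Per kilobase of the longest protein-coding transcript, a length chosen after seeing the data, SRSF7 (82.2 ± 2.75) and SRSF2 (81.7 ± 4.68) overlapped, as did SRSF6 (74.6 ± 1.5) and SRSF3 (71.9 ± 4.39). CLK1 (16.4 ± 0.89) then stood above CLK2 (14.3 ± 1.92) with overlapping libraries, and CLK4 (4.67 ± 0.23) above CLK3 (3.49 ± 0.12).

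**Figure D1:**
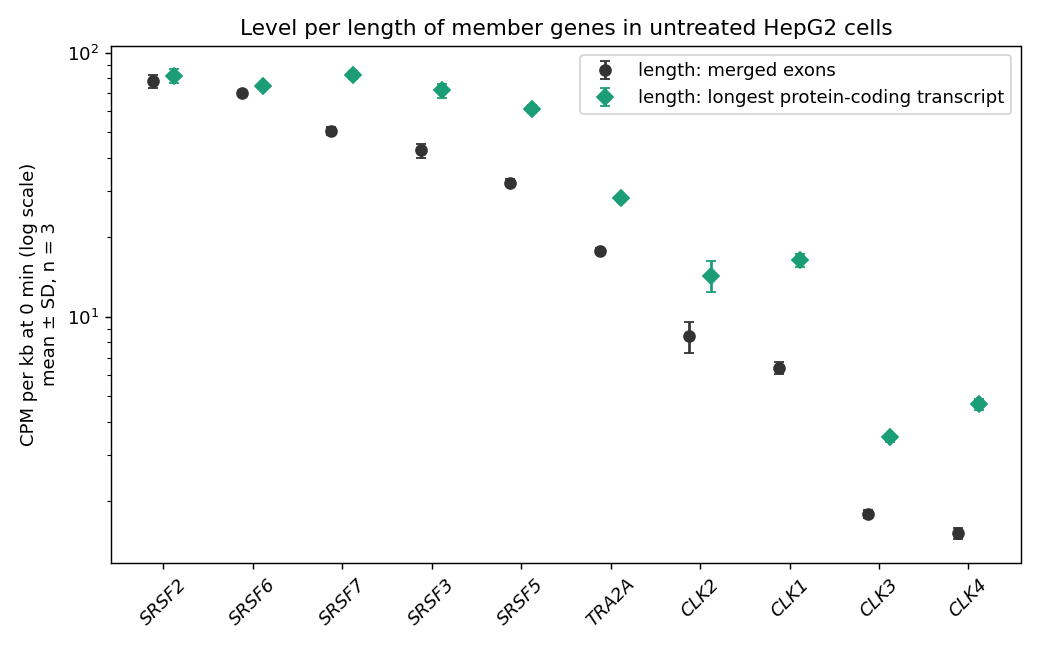
Level of each gene in untreated HepG2 cells in CPM per kilobase on a log axis (mean ± SD, 3 libraries), with the merged exons (circles) or the longest protein-coding transcript (diamonds) as the length. The 5 SRSF genes lie above TRA2A and the 4 CLK genes lie below it with either length, while CLK1 and CLK2, and CLK3 and CLK4, change places.

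At 360 min CLK1, CLK4, SRSF2 and SRSF3 were higher than at 0 min, CLK3 was slightly higher and SRSF5 was lower. The values of CLK2, SRSF7 and TRA2A overlapped those at 0 min. All SRSF6 libraries lay below those at 0 min, a log2 fold change of -0.09 that missed the threshold named next. Across the 10 genes, 5 were higher and 1 lower at the table-wide threshold (edgeR's quasi-likelihood test, Benjamini-Hochberg adjusted p under 0.05). Over all 17779 genes 18.1% passed it, 8.89% higher and 9.19% lower. The median log2 fold change of the 10 genes was 0.14, and that of all genes was 0.00. The libraries of the groups did not overlap for 5 genes that were higher and 2 that were lower, against 18.3% and 17.3% of all genes. The choice of the genes used this comparison, and nothing is read from these counts. The summed level of the 10 genes was 1616, 1617 and 1597 CPM at 360 min and 1411, 1395 and 1436 CPM at 0 min, with no overlap. With a term for the mitochondrial split the same 6 genes passed, and CLK1 was at 1.03. In bulk RNA, fewer cells with a transcript and less of it per cell cannot be told apart.

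**Figure D2:**
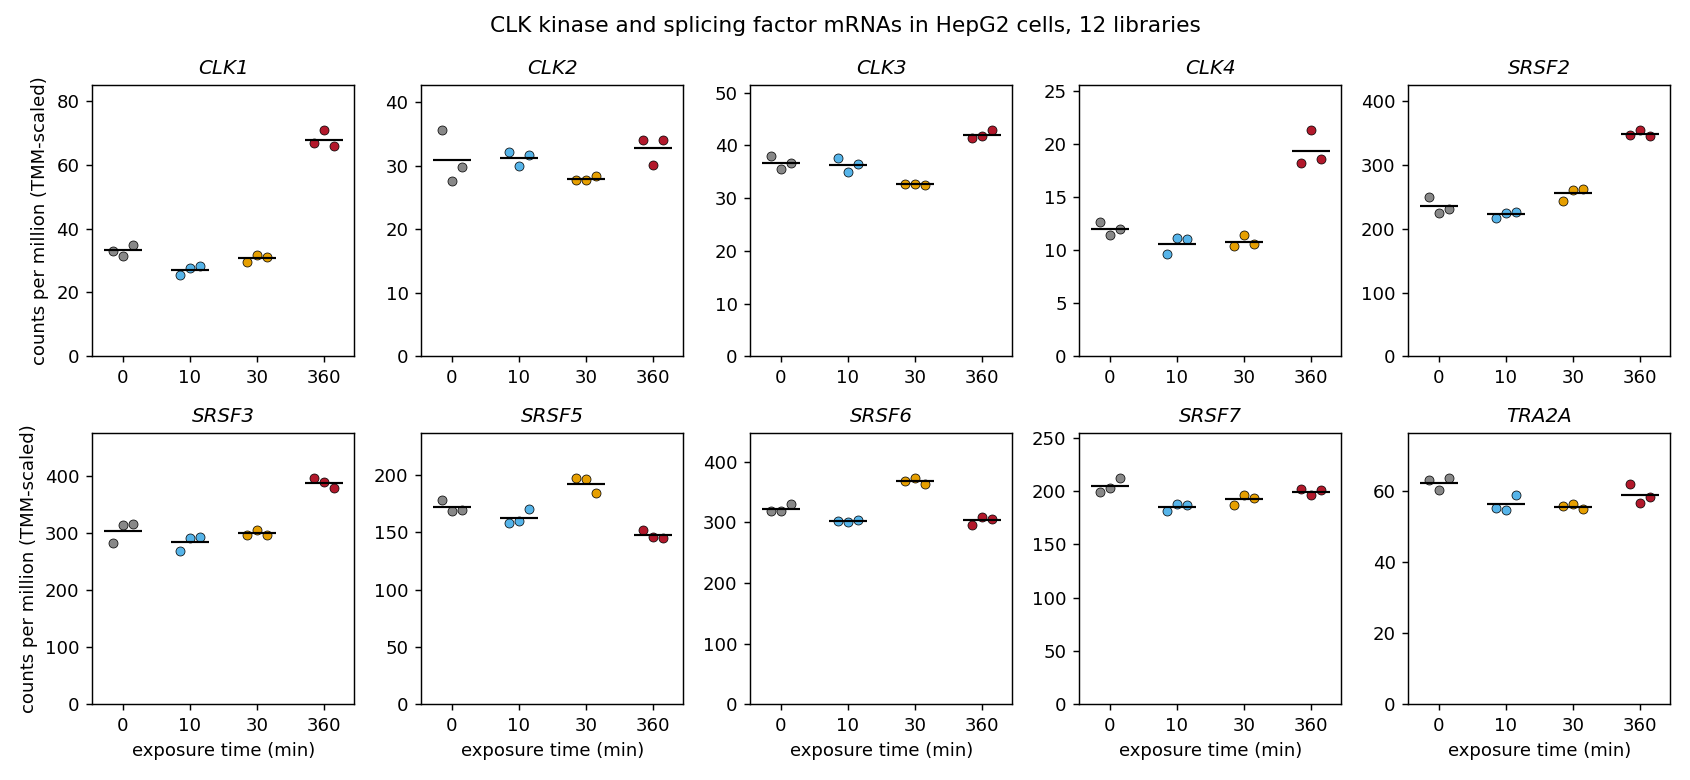
CPM (TMM-scaled) of the 10 genes in each of the 12 libraries by exposure time in min, 1 point per library and a bar at the group mean, with every vertical axis starting at 0. The 360 min libraries of CLK1 (66.1 to 70.9 CPM), CLK4, SRSF2 and SRSF3 stand above all others, and those of SRSF5 (145 to 152 CPM) stand below all others.

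CLK1, which phosphorylates SR proteins and whose own transcript is held back in the nucleus by intron retention, showed the largest change of the 10 genes (chromosome 2, 200853009 to 200864744, minus strand). Its libraries had 33.1, 31.4 and 35.0 CPM at 0 min, 25.4, 27.5 and 28.3 CPM at 10 min, 29.7, 31.7 and 31.2 CPM at 30 min, and 66.9, 70.9 and 66.1 CPM at 360 min. The 360 min libraries were above all 9 others, and the 10 min libraries were below all 0 min and 30 min libraries. CLK1 averaged 68.0 ± 2.61 CPM at 360 min and 33.2 ± 1.79 CPM at 0 min (SD, n = 3 each), a log2 fold change of 1.03 ± 0.05 (SE) or 2.05-fold. Of all genes tested, 99.3% had a smaller log2 fold change. At 10 min the mean was 27.1 ± 1.53 CPM, a log2 fold change of -0.29 ± 0.05 against 0 min that did not pass the threshold. Leaving out each library in turn kept the 360 min difference between 0.99 and 1.08.

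CLK4, the closest paralog of CLK1, showed the same order of times at a lower level (chromosome 5, 178602664 to 178630615, minus strand). It had 12.6, 11.4 and 12.0 CPM at 0 min, 9.60, 11.1 and 11.1 CPM at 10 min, 10.3, 11.4 and 10.6 CPM at 30 min, and 18.2, 21.3 and 18.5 CPM at 360 min. All 360 min libraries were above all others, and the highest, replicate 2, was the highest for CLK1 too. CLK4 averaged 19.3 ± 1.70 CPM at 360 min and 12.0 ± 0.59 CPM at 0 min (SD, n = 3 each), a log2 fold change of 0.69 ± 0.08 or 1.61-fold. At 10 min it was 10.6 ± 0.85 CPM, -0.18 ± 0.08 against 0 min, with no overlap between the libraries. The small nuclear RNA pseudogene RN7SKP70 lies on the same strand and covers 161 bases of CLK4 exons.

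CLK3, a kinase of the same family, was higher at 360 min and lower at 30 min than at 0 min (chromosome 15, 74598500 to 74645414, plus strand). It had 38.0, 35.4 and 36.6 CPM at 0 min, 37.6, 34.9 and 36.5 CPM at 10 min, 32.7, 32.7 and 32.5 CPM at 30 min, and 41.4, 41.8 and 42.9 CPM at 360 min. Every 30 min library was below every library of the other times, and every 360 min library was above them. The log2 fold change was 0.20 ± 0.04 for 360 min against 0 min, 1.15-fold, and -0.17 ± 0.04 for 30 min against 0 min. With 0 min replicate 1 as the only untreated library the 360 min value was 0.15 and missed the threshold. EDC3, on the opposite strand, shares 701 bases of exon with CLK3, and it had 43.7 ± 3.54 CPM at 360 min and 42.8 ± 2.00 CPM at 0 min (log2 fold change 0.04 ± 0.05, edgeR adjusted p = 0.73).

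CLK2, the kinase with the highest level per merged exon length, varied most among untreated libraries (chromosome 1, 155262868 to 155278491, minus strand). It had 35.6, 27.5 and 29.8 CPM at 0 min, 32.1, 29.9 and 31.7 CPM at 10 min, 27.7, 27.7 and 28.4 CPM at 30 min, and 34.0, 30.1 and 34.0 CPM at 360 min. The 0 min libraries spanned the range of all other times, with replicate 1 the highest of the 12. CLK2 averaged 32.7 ± 2.24 CPM at 360 min and 31.0 ± 4.16 CPM at 0 min (SD, n = 3 each), a log2 fold change of 0.09 ± 0.08. Without 0 min replicate 1 that value was 0.19 and passed the threshold, and with replicate 1 alone it was -0.12. Its pseudogene CLK2P1 had 50 counts over all 12 libraries, 0.273% of the CLK2 counts.

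SRSF2, also known as SC35, is a splicing activator that destabilises its own mRNA by alternative splicing of its last exons (chromosome 17, 76734115 to 76737374, minus strand). It had 251, 224 and 232 CPM at 0 min, 216, 224 and 227 CPM at 10 min, 244, 261 and 262 CPM at 30 min, and 348, 355 and 347 CPM at 360 min. The 360 min libraries were above all others, and the 30 min libraries overlapped those at 0 min through replicate 1 of each. SRSF2 averaged 349.7 ± 4.63 CPM at 360 min and 236 ± 13.5 CPM at 0 min (SD, n = 3 each), a log2 fold change of 0.57 ± 0.04. At 30 min it was 256 ± 9.91 CPM, 0.12 ± 0.04 against 0 min.

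The SRSF2 counts share sequence with a neighbour. MFSD11, a gene of the major facilitator family on the opposite strand, overlaps 1106 bases of SRSF2 exons, and the use of strand in counting is not given in the sources used here. MFSD11, looked up because of that overlap, rose by 0.69 ± 0.09 on the log2 scale at 360 min against 0 min (edgeR adjusted p = 0.00031). It had 139.8 ± 13.1 CPM at 360 min and 86.8 ± 7.97 CPM at 0 min. Reads of the 2 genes cannot be told apart within the overlap, and the part of MFSD11 in the SRSF2 value was not tested. The microRNA gene MIR636 lies wholly within SRSF2 exons.

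SRSF3, the smallest SR protein, switches off its own production through the poison exon shown above (chromosome 6, 36594353 to 36605600, plus strand). It had 282, 314 and 315 CPM at 0 min, 268, 291 and 293 CPM at 10 min, 297, 306 and 297 CPM at 30 min, and 396, 389.7 and 379 CPM at 360 min. All 360 min libraries were above all others, the 10 min and 30 min libraries each overlapped those at 0 min, and the 30 min libraries were above those at 10 min. SRSF3 averaged 388 ± 8.74 CPM at 360 min and 304 ± 18.5 CPM at 0 min (SD, n = 3 each), a log2 fold change of 0.35 ± 0.05 or 1.28-fold. Its pseudogene SRSF3P1 had 55 counts over all libraries, 0.0282% of the SRSF3 counts.

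SRSF5 and SRSF6 were high at 30 min instead. SRSF5, an SR protein known from rat liver regeneration (chromosome 14, 69726900 to 69772005, plus strand), had 178, 169 and 169.8 CPM at 0 min and 158, 159.7 and 170.1 CPM at 10 min. It had 197, 196 and 184 CPM at 30 min and 152, 146 and 145 CPM at 360 min. Every 30 min library was above, and every 360 min library below, all libraries of the other times. The log2 fold change was -0.22 ± 0.04 for 360 min against 0 min and 0.16 ± 0.04 for 30 min against 0 min, and the value at 30 min missed the threshold.

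SRSF6, a regulator of alternative exons whose NMD transcript carries the second poison exon shown above (chromosome 20, 43457928 to 43464247, plus strand), had the narrowest spread of the SR genes at 10 min. It had 318, 319 and 330.0 CPM at 0 min, 302, 300.3 and 304 CPM at 10 min, 369, 373 and 364 CPM at 30 min, and 296, 309 and 306 CPM at 360 min. The 30 min libraries were above all others, and all 10 min and 360 min libraries were below those at 0 min. SRSF6 averaged 368 ± 4.47 CPM at 30 min and 323 ± 6.47 CPM at 0 min (SD, n = 3 each), a log2 fold change of 0.19 ± 0.03. At 360 min it was 304 ± 6.80 CPM, -0.09 ± 0.03 against 0 min, which missed the threshold and passed it when 0 min replicate 1 was left out (-0.10).

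SRSF7 and TRA2A were highest on average at 0 min. SRSF7, an SR protein that also aids mRNA export (chromosome 2, 38743599 to 38751494, minus strand), had 199, 203 and 212 CPM at 0 min and 181, 188 and 187 CPM at 10 min. It had 187, 197 and 194 CPM at 30 min and 202, 196 and 201 CPM at 360 min. The 10 min and 30 min libraries were below all 0 min libraries, and the 360 min libraries overlapped them. The log2 fold change was -0.04 ± 0.03 for 360 min against 0 min and -0.14 ± 0.03 for 10 min against 0 min.

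TRA2A (chromosome 7, 23504780 to 23532041, minus strand) had 63.3, 60.4 and 63.7 CPM at 0 min and 55.2, 54.7 and 59.1 CPM at 10 min. It had 55.7, 56.5 and 55.0 CPM at 30 min and 62.1, 56.7 and 58.4 CPM at 360 min. As for SRSF7, the 10 min and 30 min libraries were below all 0 min libraries and the 360 min libraries overlapped them. The log2 fold change was -0.08 ± 0.04 for 360 min against 0 min, -0.16 ± 0.04 for 30 min and -0.15 ± 0.04 for 10 min.

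**Figure D3:**
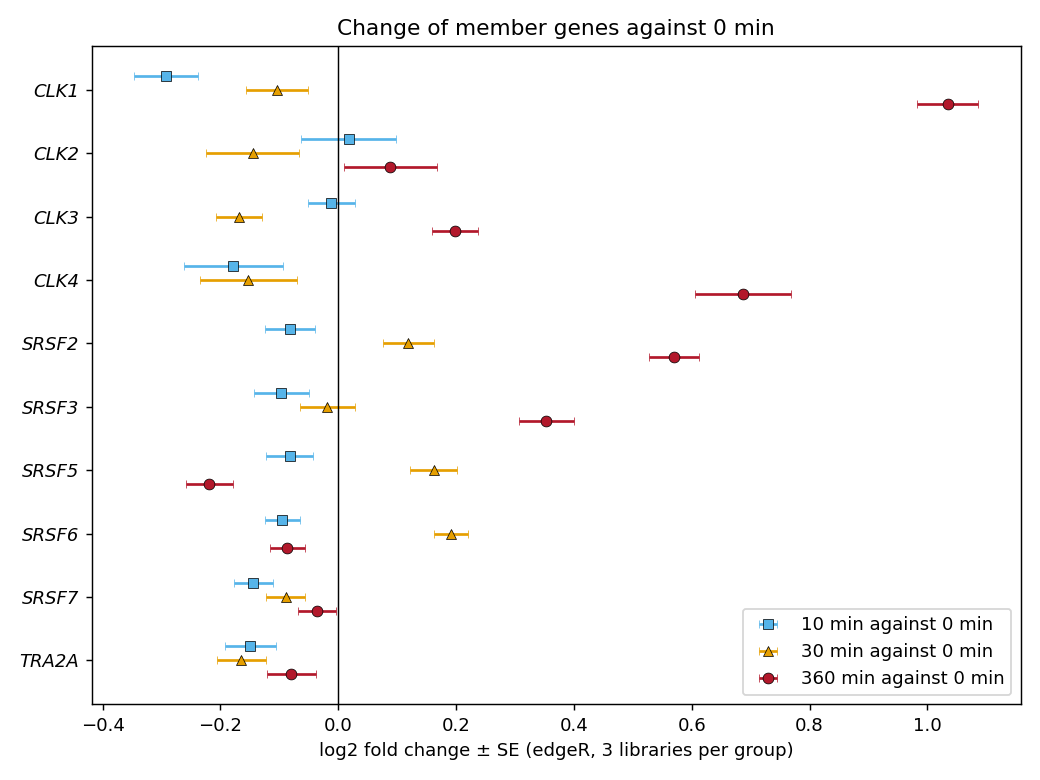
Log2 fold change ± SE (edgeR, 3 libraries per group) of each gene at 10, 30 and 360 min against 0 min, with a line at 0. At 360 min CLK1 (1.03), CLK4 (0.69), SRSF2 (0.57) and SRSF3 (0.35) lie to the right, SRSF5 and SRSF6 lie right of 0 only at 30 min, and 9 of the 10 genes lie left of 0 at 10 min (all 10 with total-count scaling).

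At 10 min none of the 10 genes passed the threshold, and 3 of all 17779 genes did (0.0169%, with 0.0112% higher and 0.00562% lower). The log2 fold change was below 0 for 9 of the 10, all but CLK2 (0.02, and -0.0068 with total-count scaling), with a median of -0.10 against 0.00 over all genes. CLK1, CLK4, SRSF6, SRSF7 and TRA2A had all 10 min libraries below all 0 min libraries. That is 5 of 10, against 7.72% of all genes without overlap and lower at 10 min, and no member was wholly higher, against 7.73%. In either direction 15.5% of all genes had no overlap. The 10 genes were chosen with results of these libraries known, so these counts beside the shares are a description and nothing is read from them. At an unadjusted p under 0.05, 1941 of all genes differed, and with DESeq2 CLK1 and SRSF7 passed its adjusted threshold, both lower at 10 min. The summed level of the 10 genes was 1285, 1321 and 1348 CPM at 10 min and 1411, 1395 and 1436 CPM at 0 min. The mitochondrial share was on the high side in all 3 libraries at 10 min and in 1 of the 3 at 0 min. With a term for that split the CLK1 value was -0.30. MALAT1, a nuclear-retained RNA, was -0.35 ± 0.10 at 10 min against 0 min (edgeR adjusted p = 0.22), and its part in these values was not tested.

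At 30 min SRSF6 alone passed the threshold, among 0.765% of all genes, or 0.18% in its direction. The log2 fold change was above 0 for SRSF2, SRSF5 and SRSF6 and below 0 for the other 7, with a median of -0.10 against 0.00 over all genes. The libraries of SRSF5 and SRSF6 did not overlap and were higher at 30 min, against 7% of all genes. Those of CLK3, SRSF7 and TRA2A did not overlap and were lower, against 7.5% of all genes. Because the genes were chosen with results of these libraries known, these counts too are a description. SRSF6 missed the threshold when the fit held only these groups. With a term for the mitochondrial split its value was 0.19 and it passed.

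Between 30 and 360 min, CLK1 showed a log2 fold change of 1.14 ± 0.05, CLK4 of 0.84 ± 0.08 and SRSF2 of 0.45 ± 0.04. SRSF3 and CLK3 were both at 0.37, while SRSF5 was at -0.38 ± 0.04 and SRSF6 at -0.28 ± 0.03. CLK2 was at 0.23 ± 0.08. Of the 10 genes 6 passed the threshold higher at 360 min and 2 lower, while 22.7% of all genes passed it, 11.4% higher and 11.3% lower. The median of the 10 genes was 0.30, and that of all genes was 0.00. The choice of the genes used the 360 min counts, and nothing is read from the counts and shares of this comparison. The call of CLK2 was lost when any 1 of 5 of the 6 libraries was left out, all but 360 min replicate 2, with values between 0.20 and 0.24. SRSF7 (0.05) and TRA2A (0.08) did not pass. The libraries of the 4 CLK genes, SRSF2, SRSF3 and TRA2A did not overlap and were higher at 360 min, 7 of 10 against 19.8% of all genes, and those of SRSF5 and SRSF6 were lower, against 20% (39.8% of all genes in either direction).

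Across the 12 libraries CLK1 followed CLK4 most closely among the 10 genes, with a Pearson correlation of log2 CPM of 0.982. It was 0.968 with SRSF3, 0.962 with SRSF2 and 0.797 with CLK3, against -0.653 with SRSF5 and -0.333 with SRSF6. SRSF5 and SRSF6 had a correlation of 0.861, and SRSF7 and TRA2A of 0.742. These describe 12 points that share libraries, groups and depth. Of 12435 genes whose mean log2 CPM reached 1, those most like CLK1 were ZWINT (0.992), SMLR1 (0.991), PRPF38B (0.986), PRPF4B (0.985) and KCTD7 (0.984), and CLK4 came next. These 5 genes had log2 fold changes of 0.32 to 0.52 at 360 min against 0 min, smaller than those of CLK1 and CLK4.

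The other genes of the pathway were taken from 7 lists by role, 154 genes in all and every one tested. They hold other SR family genes, SR-related and nuclear speckle genes, SR protein kinases with related kinases and phosphatases, hnRNP and other splicing regulators, core spliceosome genes, NMD and exon junction genes, and cold-inducible RNA-binding genes. At 360 min against 0 min, 42 of the 154 rose and 4 fell, 29.9% in all, against 8.89% higher and 9.19% lower (18.1%) of all genes, with a median log2 fold change of 0.07 against 0.00 over all genes. Without 360 min replicate 2, 26 passed. None of the 154 passed at 10 min, where 2 passed with DESeq2. At 30 min, 2 fell and none rose, and at 360 min against 30 min 53 rose and 6 fell (38.3%, against 22.7% of all genes), or 39 in all without 360 min replicate 2. The lists were drawn up by role but with earlier results of these data known, so the shares of genes called are a description. No set test was run on these lists. Of the 12 hepatocyte and HepG2 markers, which are not on the 7 lists, 4 rose and 0 fell at 360 min against 0 min (33.3%). Against 30 min, 4 of the markers rose and 1 fell (41.7%). The excess over all genes is therefore not particular to splicing genes, and the part of expression level in these shares was not tested.

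SR-related and speckle genes had 13 of 30 higher and none lower at 360 min against 0 min (43.3%), beside 8.89% higher and 9.19% lower of all genes. RSRP1, an arginine- and serine-rich protein gene, rose by 0.56 ± 0.10 (edgeR adjusted p = 0.0020), RSRC2 by 0.44 ± 0.07 (edgeR adjusted p = 0.00072) and PRPF38B, a pre-mRNA processing factor, by 0.41 ± 0.05 (edgeR adjusted p = 5.9e-05). Among other SR family genes 1 of 8 passed (12.5%, below the 18.1% of all genes): SRSF10, a splicing repressor when dephosphorylated, rose by 0.14 ± 0.03 (edgeR adjusted p = 0.010, and 0.053 without 360 min replicate 2). SRSF10 had 268 ± 2.49 CPM at 360 min and 244 ± 8.34 CPM at 0 min.

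The kinase list had 3 of 23 higher and none lower at 360 min, 13% in all and below the 18.1% of all genes (8.89% higher). PRPF4B, which phosphorylates spliceosomal proteins, had 177 ± 6.57 CPM at 360 min and 139.8 ± 6.31 CPM at 0 min, a rise of 0.34 ± 0.04 (edgeR adjusted p = 9.1e-05). CDK12, which phosphorylates the tail of RNA polymerase II, rose by 0.31 ± 0.04 (edgeR adjusted p = 7.9e-05). DYRK1A, a kinase that also targets splicing factors, was at 0.18 ± 0.05 (edgeR adjusted p = 0.031). The call did not survive the omission of any 1 of 5 libraries, all but 0 min replicate 2, with adjusted p between 0.076 and 0.12.

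Among hnRNP and other regulators 13 of 42 rose and 2 fell at 360 min (35.7%), beside 8.89% higher and 9.19% lower of all genes. TARDBP, which regulates its own mRNA, rose by 0.30 ± 0.04 (edgeR adjusted p = 0.00043), and SYNCRIP and ESRP2, an epithelial splicing regulator, each rose by 0.26. HNRNPLL and HNRNPH3 each fell by 0.20. Core spliceosome genes had 5 of 30 higher and 1 lower, 20% in all against 18.1% of all genes tested. SNRNP70, a protein of the U1 particle, rose by 0.23 ± 0.04 (edgeR adjusted p = 0.00098) and SF1, the branch point binding protein, by 0.21 ± 0.05. SF3A2 fell by 0.16 ± 0.04, a call lost without 360 min replicate 1 or 2 (adjusted p = 0.063 and 0.057). PRPF3 was at 0.12 ± 0.04 (adjusted p = 0.048), a call that ended when 0 min replicate 1 or 2, or 360 min replicate 2 or 3, was omitted, with adjusted p between 0.13 and 0.17.

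NMD and exon junction genes had 6 of 19 higher and 1 lower at 360 min (36.8%, against 18.1% of all genes, 8.89% higher). SMG1, the kinase that phosphorylates UPF1, rose by 0.14 ± 0.03 (edgeR adjusted p = 0.010), and NBAS, which takes part in NMD and in vesicle transport, fell by 0.20 ± 0.03 (edgeR adjusted p = 0.0012). PNRC2, which links UPF1 to decapping, was at 0.27 ± 0.07, a call lost without 0 min replicate 1 (edgeR adjusted p = 0.054) or 360 min replicate 2 (0.070). UPF1, the central helicase of NMD, was at 0.16 ± 0.04, and omitting 0 min replicate 1 or 3, or 360 min replicate 2 or 3, ended the call, with adjusted p between 0.056 and 0.067. Of the cold-inducible genes RBM3 rose by 0.29 ± 0.05 (edgeR adjusted p = 0.0027), and CIRBP did not pass. Of the 3 nuclear-retained RNAs measured, KCNQ1OT1 rose by 0.43 ± 0.09 (edgeR adjusted p = 0.0043), while MALAT1 and NEAT1 did not pass and had log2 fold changes between -0.23 and -0.19. MALAT1 had 50.2, 51.8 and 43.6 CPM at 360 min and 55.1, 54.6 and 60.5 CPM at 0 min, with no overlap. The part of these RNAs in the values of the other genes was not tested.

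**Figure D4:**
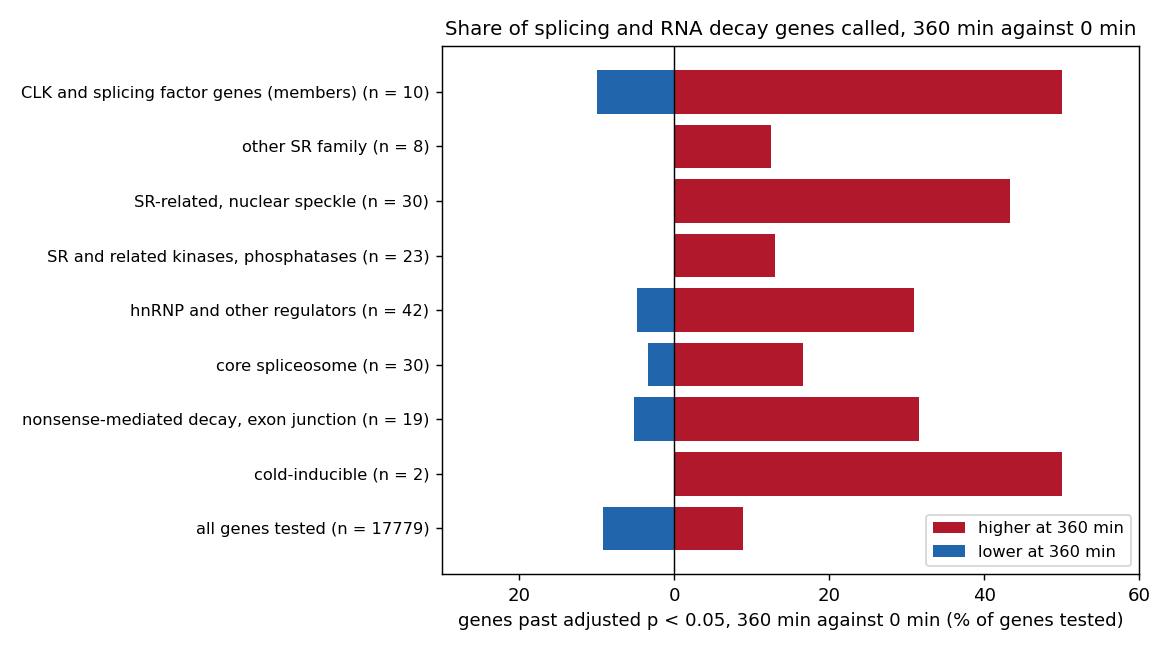
Share of genes past the threshold at 360 min against 0 min, in percent of the genes tested in each list, with genes that were higher to the right of 0 and genes that were lower to the left. SR-related and speckle genes reached 43.3% and the kinase list 13%, beside 18.1% over all 17779 genes, and the bar of the 10 CLK and splicing factor genes (60%) shows genes chosen with this comparison known.

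At 30 min both list genes that passed had lower counts than at 0 min. RSRP1 had 29.1 ± 1.79 CPM at 30 min and 41.8 ± 7.09 CPM at 0 min, and fell by 0.51 ± 0.10 (edgeR adjusted p = 0.039). DYRK1B, a kinase related to DYRK1A, had 1.56 ± 0.04 CPM at 30 min and 2.50 ± 0.34 CPM at 0 min, and fell by 0.67 ± 0.13 (edgeR adjusted p = 0.041). Each call was lost when any 1 of 5 of the 6 libraries was left out, all but 0 min replicate 2, with adjusted p between 0.064 and 0.17. At 10 min the smallest p in the SR-related list belonged to PNN, a speckle and desmosome protein gene, at -0.31 ± 0.07 (edgeR adjusted p = 0.16).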

How the data were processed

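The authors deposited whole-number read counts per gene, which were analysed for 12 HepG2 libraries in 4 groups of 3. HISAT2, DESeq2 and GRCh38 are named, per the submitters' processing notes. The sources used here do not give their versions or roles, how reads were counted, the gene models, or whether strand was used. Of 60612 gene identifiers, 58394 (96.34%) were found in GENCODE 29, the 10 members among them.

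The main test was edgeR 4.0.16 in R 4.3.3, after filterByExpr by group (17779 genes left) and TMM scaling, with factors between 0.981 and 1.014. All 12 libraries entered 1 quasi-likelihood fit with a mean per group (8 residual degrees of freedom, common dispersion 0.00945). Calls required an adjusted p (Benjamini-Hochberg, over all genes tested, two-sided) under 0.05. Standard errors (SE) were derived from each log2 fold change and its F statistic. CPM values are TMM-scaled. Floors of 3 counts cover counting error only, and p-values speak only of the spread among these biological replicates. No replicate pair of a group agreed within sampling noise (chi-square per degree of freedom 6.36 or more). Pairs on the same side of the mitochondrial split had 6.36 to 9.36, and pairs across it had 18.1 to 34.2, the highest for 0 min replicates 1 and 2. Mitochondrial genes were among the genes used. Correlations use log2 CPM with a prior count of 2.

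The 10 members and the lists were chosen with earlier results of these data known. All members are described. In the other lists the rule allowed, per comparison, up to 3 called genes a direction, by size of change, or up to 2 by smallest p where none was called. Alternatives were DESeq2 1.42.0, voom (limma 3.58.1), RLE scaling, scaling by totals, dropping the filter, a filter at CPM 1 in 3 libraries and 100 counts in total, fits to the compared groups, a replicate block, a term for mitochondrial share, other thresholds and omitted libraries. The model was tested on simulated data. Promoter windows are from RefSeq (GRCh38.p14). SRSF2 and TRA2A windows were not used here.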

Additional observations from a re-analysis of the deposited data

Results flagged for a closer look

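In 7 genes the 30 min and 360 min libraries lay on opposite sides of all 0 min libraries, and the difference between the times passed the threshold across all genes. Only the 10 members and the list genes named at 360 min against 30 min were looked at in this way. The list genes were named for passing that comparison, so their passing it here was fixed in advance. The differences of all 7 genes, and their adjusted p, are therefore a description. The share of all genes with such a pattern was not worked out. CLK3 was lower than 0 min at 30 min (-0.17) and higher at 360 min (0.20), a log2 difference of 0.366 between 360 and 30 min. SRSF5 went the other way, with 0.16 at 30 min and -0.22 at 360 min, a difference of -0.381. SRSF6 did so too, with a difference of -0.278.

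RSRP1 showed the widest swing, 1.08 between 360 and 30 min (edgeR adjusted p = 1.2e-05), with -0.51 at 30 min and 0.56 at 360 min against 0 min. LUC7L, a U1-associated factor gene, differed by 0.491 (edgeR adjusted p = 2.1e-05), MBNL2, a splicing regulator, by 0.333 (edgeR adjusted p = 0.0033) and PRPF3, a protein of the tri-snRNP, by 0.269 (edgeR adjusted p = 0.00027). Against 0 min, MBNL2 passed the threshold at neither time (edgeR adjusted p = 0.31 at 30 min and 0.22 at 360 min). LUC7L and PRPF3 missed it at 30 min (edgeR adjusted p = 0.18 and 0.12), as did CLK3 and SRSF5, and SRSF6 missed it at 360 min. RSRP1 passed at both times, but its 30 min call and the 360 min call of PRPF3 depended on single libraries, as given above. The comparisons with 0 min share the same untreated libraries.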

How the results depend on the processing

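At 360 min against 0 min CLK1, CLK4, SRSF2, SRSF3 and SRSF5 kept their direction and passed the threshold in all 16 alternatives. CLK1 ranged from 0.99 to 1.08, CLK4 from 0.61 to 0.73, SRSF2 from 0.48 to 0.61, SRSF3 from 0.30 to 0.46 and SRSF5 from -0.27 to -0.20. Since these genes were chosen with the 360 min counts known, the ranges show only how the values depend on the processing. SRSF6 passed in 5 of the 16. The replicate block (replicate number as a term) left the members past the threshold at 0, 1, 6 and 8 for 10, 30 and 360 min against 0 min and 360 against 30 min, and gave 41 and 54 list genes at 360 min against 0 and 30 min. Of 18 same-numbered pairs of libraries none had a correlation over 0.1 (-0.054 to 0.099). The median was 0.027 for the same number and -0.019 for other numbers, and 7 of 12 libraries correlated best with their own number. Whether the numbers pair the samples cannot be told from these values. At 10 min the 3 genes called became 177 with DESeq2, 9 with no filter, 7 with the compared groups alone, 6 with the replicate block, 1 and 5 at thresholds of 0.01 and 0.1, 10 with 0 min replicate 1 as the lone untreated library, and 1 to 25 without 1 library. DESeq2 called 2 members and 2 list genes there. At 30 min the 136 genes became 271 with DESeq2, 67 with the compared groups alone, 62 and 210 at the other thresholds, 52 with the lone library and 61 to 163 without 1 library. The 1 member called at 30 min became 3 with DESeq2 (SRSF5 and TRA2A added), 0 with the compared groups alone, 2 at 0.1 (CLK3 added) and 0 with the lone library. The 2 list genes became 5 with DESeq2, 4 with the stricter filter, 0 with the compared groups alone, 1 with the replicate block, 1 with the mitochondrial term, 0 and 4 at the other thresholds, 1 with the lone library and 0 to 2 without 1 library. At 360 min the 3215 genes became 1718 at 0.01 and 1751 with the lone library, and the 46 list genes 30 with no filter, 23 at 0.01, 26 with the lone library and 26 to 38 without 1 library. Against 30 min the 4034 genes became 2256 at 0.01, and the 59 list genes 38 with no filter, 33 at 0.01 and 39 to 48 without 1 library. The causes were not tested. Signs turned only in uncalled values. Among members these were CLK2 at 10 min (-0.18 to 0.13), CLK3 at 10 min (-0.05 to 0.02), SRSF3 at 10 min (-0.15 to 0.02) and 30 min (-0.07 to 0.09), and CLK2 (-0.12 to 0.19) and SRSF7 (-0.06 to 0.01) at 360 min against 0 min. Among list genes, MALAT1 at 30 min (-0.04) was 0.022 with the mitochondrial term, -0.18 to 0.051 without 1 library, and 0.0038 with the lone library. NEAT1 at 30 min (0.06) was -0.057 to 0.22 without 1 library and -0.21 with the lone library. RBM3 at 10 min (0.03) was -0.015 to 0.080 without 1 library and -0.046 with the lone library, where CIRBP at 10 min (0.09) was -0.10 and SMG8 at 30 min (-0.09) was 0.0081. Depth limited CLK4 most among the members, with 282 counts in its smallest library.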
